A study of Mus musculus with 16 samples.

Results

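Glycolysis is the chain of enzymes that turns glucose into pyruvate, and 10 of its enzyme genes were followed here across embryonic mouse heart valves: Hk1, Hk2, Gpi1, Pfkl, Aldoa, Aldoc, Gapdh, Pgk1, Pgam1 and Ldha. They were listed by name, with no threshold on their values, and all 10 were among the 13964 genes of the deposited table and passed the filter on low values. RNA was sequenced from aortic and pulmonary valves cut by laser from C57BL/6 embryos at stage E14.5 (embryonic day), with 4 libraries of each genotype, wild type and mutant, for each valve. The mutants are Jag1flox;Nkx2.5-Cre, in which a Cre recombinase under control of the heart gene Nkx2-5 acts on a floxed allele of the Notch ligand gene Jag1. The labels name no Cre in the wild types, so the mutants may differ from them in the Cre as well as in Jag1. Cells in which Nkx2-5 was never active keep the gene. The labels do not say whether embryos were pooled.

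Hexokinases trap glucose in the cell, Gpi1 and the phosphofructokinases prepare the sugar for splitting, aldolases split it, and Gapdh, Pgk1 and Pgam1 carry the products towards pyruvate. Lactate dehydrogenase then turns pyruvate into lactate, which lets the chain run with little oxygen. Skeletal muscle uses this chain heavily and has its own isozymes for several steps (separate genes for the same reaction), while the embryo as a whole develops at low oxygen. The transcription factor HIF-1 binds DNA at a short motif, CGTG preceded by A or G, and raises many glycolytic genes in low oxygen.

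The promoters of 5 of the enzymes are shown, of which 4 (Ldha, Pgk1, Pgam1 and Hk2) held the A form of the motif, ACGTG. Hk1 held neither form, and was the only enzyme with a higher median in the libraries poor in muscle transcripts described below. Gpi1, Pfkl, Aldoa, Aldoc and Gapdh also held no A form and had lower medians there, as the 4 with the A form did. The G form, GCGTG, was in Pfkl, Aldoc, Gapdh and Pgam1, so Hk1, Gpi1 and Aldoa were the enzymes with neither form. Whether the motif bears on that split was not tested. Each line is the 250 bases before a transcript start from RefSeq (build GRCm38.p6), on the gene's own strand. All 10 enzymes matched by symbol, and for each the start nearest the annotated start of the gene was taken. Each form was searched on both strands, and matches that overlap were counted once. Matches of the A form are in capitals.
Ldha: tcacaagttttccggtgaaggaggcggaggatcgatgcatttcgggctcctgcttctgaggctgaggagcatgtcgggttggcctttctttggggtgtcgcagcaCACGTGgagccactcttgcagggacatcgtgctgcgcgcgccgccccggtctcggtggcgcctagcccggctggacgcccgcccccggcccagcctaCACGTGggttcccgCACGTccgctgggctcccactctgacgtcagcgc
Pgk1: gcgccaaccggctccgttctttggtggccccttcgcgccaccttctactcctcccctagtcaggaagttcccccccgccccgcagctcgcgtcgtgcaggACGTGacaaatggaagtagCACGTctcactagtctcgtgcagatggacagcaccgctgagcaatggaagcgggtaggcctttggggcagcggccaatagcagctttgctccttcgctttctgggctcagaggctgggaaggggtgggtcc
Pgam1: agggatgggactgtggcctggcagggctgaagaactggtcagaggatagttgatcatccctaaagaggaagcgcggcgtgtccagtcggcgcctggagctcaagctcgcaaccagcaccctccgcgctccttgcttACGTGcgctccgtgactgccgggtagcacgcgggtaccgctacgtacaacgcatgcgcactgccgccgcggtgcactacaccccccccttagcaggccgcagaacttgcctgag
Hk2: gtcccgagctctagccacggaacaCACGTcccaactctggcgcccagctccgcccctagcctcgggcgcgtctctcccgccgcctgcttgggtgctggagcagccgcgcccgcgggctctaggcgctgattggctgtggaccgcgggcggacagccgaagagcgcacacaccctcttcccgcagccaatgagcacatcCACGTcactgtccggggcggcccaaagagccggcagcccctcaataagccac
Hk1: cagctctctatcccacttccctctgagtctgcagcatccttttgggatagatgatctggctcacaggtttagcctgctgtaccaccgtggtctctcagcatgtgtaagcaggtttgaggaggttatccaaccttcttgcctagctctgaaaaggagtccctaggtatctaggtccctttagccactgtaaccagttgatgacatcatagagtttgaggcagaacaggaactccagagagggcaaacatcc

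The Ldha window is chr7:46845554-46845803 on the plus strand and holds 3 matches, starting 145, 48 and 34 bases before that transcript start. This window lies inside the annotated span of the gene, which begins at chr7:46841475. The Pgk1 window, chrX:106186850-106187099 on the plus strand, holds 2, at 150 and 131 bases. The Pgam1 window, chr19:41911621-41911870 on the plus strand, holds 1, at 114 bases. The Hk2 window, chr6:82774455-82774704 on the minus strand, holds 2, at 226 and 52 bases. The Hk1 window, chr10:62379909-62380158 on the minus strand, holds none. In all, 4 of the 10 enzyme promoters (40%, 1 promoter for each enzyme) held the A form. The share was 16.6% over all 32851 promoters of the same length, which were not cut to 1 per gene. The G form, GCGTG, was in 40% of the enzyme promoters and 28.2% of all promoters. These matches describe letters only, and binding was not measured.

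Values are normalised counts, which differed by at most 0.000376% from CPM rescaled by trimmed-mean (TMM) factors computed from the recovered reads, and depth was 4.56 to 8.68 M reads per library (M, megareads), so 1 read is worth 0.117 to 0.232 normalised counts. Jag1 served as the check of the labels: it was 5.93 to 11.4 in the mutant aortic libraries against 18.8 to 54.7 in the wild types, and 1.85 to 12.4 against 13.6 to 25.7 in the pulmonary valve. The libraries fell into clearly separate sets by Mylpf, a myosin light chain of fast skeletal muscle. It was 0.569 to 23.2 in 6 libraries, namely libraries 2 and 4 of the wild types and library 4 of the mutants in either valve, and 278 to 900 in the other 10. The summed level of 12 skeletal muscle markers was 2.99 to 61.4 in those 6 libraries and 760 to 2445 in the others. The sum of 11 measured cardiomyocyte markers was 156 to 560 against 929 to 3631. Valve mesenchyme markers (8 genes) summed to 8568 to 11816 against 1730 to 8607, and endocardial and endothelial markers (7 genes) to 973 to 1947 against 208 to 972. Erythroid markers (10 measured genes) summed to 40906 in library 2 of the wild-type aortic group, to 41758 in library 1 of the wild-type pulmonary group, and to 1369 to 11946 in the other 14. The labelled tissue's markers were thus measured in every library, and no measured marker of these lists was at 0 throughout a set. Of the 8 wild-type libraries 4 were in the low-Mylpf set, and of the 8 mutant libraries 2, so the genotype differences of the enzymes are also given by Mylpf set, while permutation tests, litter pairs and gene lists are over all libraries only.

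Expressed per kilobase of the longest coding transcript, the enzymes held a steep order of levels. In wild-type aortic libraries (mean ± SD, n = 4, normalised counts per kb) Ldha was highest at 249 ± 120, followed by Aldoa at 161 ± 98.8, Gapdh at 141 ± 69.5 and Pgk1 at 110 ± 63.7. Gpi1 at 46.1 ± 22.6 and Pgam1 at 34.9 ± 14.0 were in the middle. Pfkl at 8.57 ± 4.90, Hk1 at 5.43 ± 1.46, Hk2 at 2.57 ± 1.79 and Aldoc at 0.712 ± 0.135 were the lowest. In wild-type pulmonary libraries Gapdh at 134 ± 52.9 was above Aldoa at 123 ± 32.4. In the mutant pulmonary libraries Ldha was at 283 ± 28.4, Aldoa at 173 ± 33.6, Gapdh at 171 ± 27.8, Pgk1 at 143 ± 36.1, Gpi1 at 47.3 ± 12.1 and Pgam1 at 44.5 ± 8.19. Neighbours from Aldoa to Pgk1, and Gpi1 beside Pgam1, differed by less than the spread between libraries in the wild-type aortic and mutant pulmonary groups. The hexokinases and Pfkl were thus below every other listed enzyme except Aldoc. The place of Pgam1 rests on how reads were split between it and Pgam1-ps2, an identical copy described below: the sum of both was 449 ± 234 normalised counts in wild-type aortic libraries (not per kb), against 61.9 ± 24.9 for Pgam1 alone and 452 ± 218 for Ldha.

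The 2 hexokinases had different patterns over the libraries. Hk1 (chr10:62268855-62379908, minus strand) encodes the widely expressed form. Its values in libraries 1 to 4 were 16.6, 26.3, 19.7 and 30.4 in the wild-type aortic group and 21.2, 24.6, 22.7 and 31.7 in the mutant aortic group. Pulmonary libraries had 43.7, 37.8, 19.5 and 26.6 in the wild types and 18.4, 27.2, 24.9 and 42.2 in the mutants. Hk1 was the only one of the 10 enzymes with a higher median in the low-Mylpf libraries, at 31.0 against 21.9. The sets overlapped: wild-type pulmonary library 1, outside the low-Mylpf set, had the highest value of all. Mutant pulmonary library 2, also outside it, was at 27.2, above the low-Mylpf libraries wild-type aortic 2 and wild-type pulmonary 4.

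Hk2 (chr6:82725025-82774454, minus strand) encodes the insulin-responsive form of muscle and fat. In libraries 1 to 4 it was 28.9, 10.2, 9.33 and 8.25 in the wild-type aortic group and 21.5, 8.61, 21.7 and 3.84 in the mutant aortic group. It was 18.1, 9.62, 6.95 and 5.38 in the wild-type pulmonary group and 19.6, 51.8, 11.1 and 4.94 in the mutants. Single libraries stood out in this gene: wild-type aortic 1, and mutant pulmonary 2 with the highest level of all 16. Its median was 6.82 in the low-Mylpf set and 18.9 in the others. Per kb, Hk1 made up 85.4 ± 5.7% of the hexokinase transcript in the 6 low-Mylpf libraries (SD) and 63.1 ± 14.7% in the other 10, with Hk2 making up the rest. Hk3 and Hkdc1 were not analysed here.

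Gpi1 (chr7:34201330-34230336, minus strand) interconverts the phosphates of glucose and fructose. In the aortic valve its values were 189, 92.6, 188 and 62.6 in wild-type libraries 1 to 4 and 178, 97.4, 118 and 88.6 in the mutants. Pulmonary values were 140, 78.7, 147 and 82.1 in the wild types and 125, 188, 118 and 114 in the mutants. In the wild types of both valves, libraries 2 and 4, which are in the low-Mylpf set, were below libraries 1 and 3.

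Pfkl (chr10:77986947-78010083, minus strand) is the liver form of phosphofructokinase, the main control point of the chain. It was 42.1, 16.6, 52.6 and 16.5 in the wild-type aortic libraries and 43.7, 42.6, 34.2 and 20.9 in the mutant aortic ones. Pulmonary levels were 40.6, 28.8, 24.6 and 24.6 in the wild types and 33.4, 39.5, 29.8 and 62.7 in the mutants. The highest value of all was in mutant pulmonary library 4, which belongs to the low-Mylpf set. Per kb, Pfkl, the muscle form Pfkm and the platelet form Pfkp shared this step: in the low-Mylpf set the shares were 31.9 ± 11.3%, 31.1 ± 14.9% and 37.0 ± 16.6% (SD, n = 6), and in the others 40.6 ± 10.2%, 35.4 ± 8.0% and 24.0 ± 12.8% (n = 10). No single isozyme led in all libraries.

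**Figure D1:**
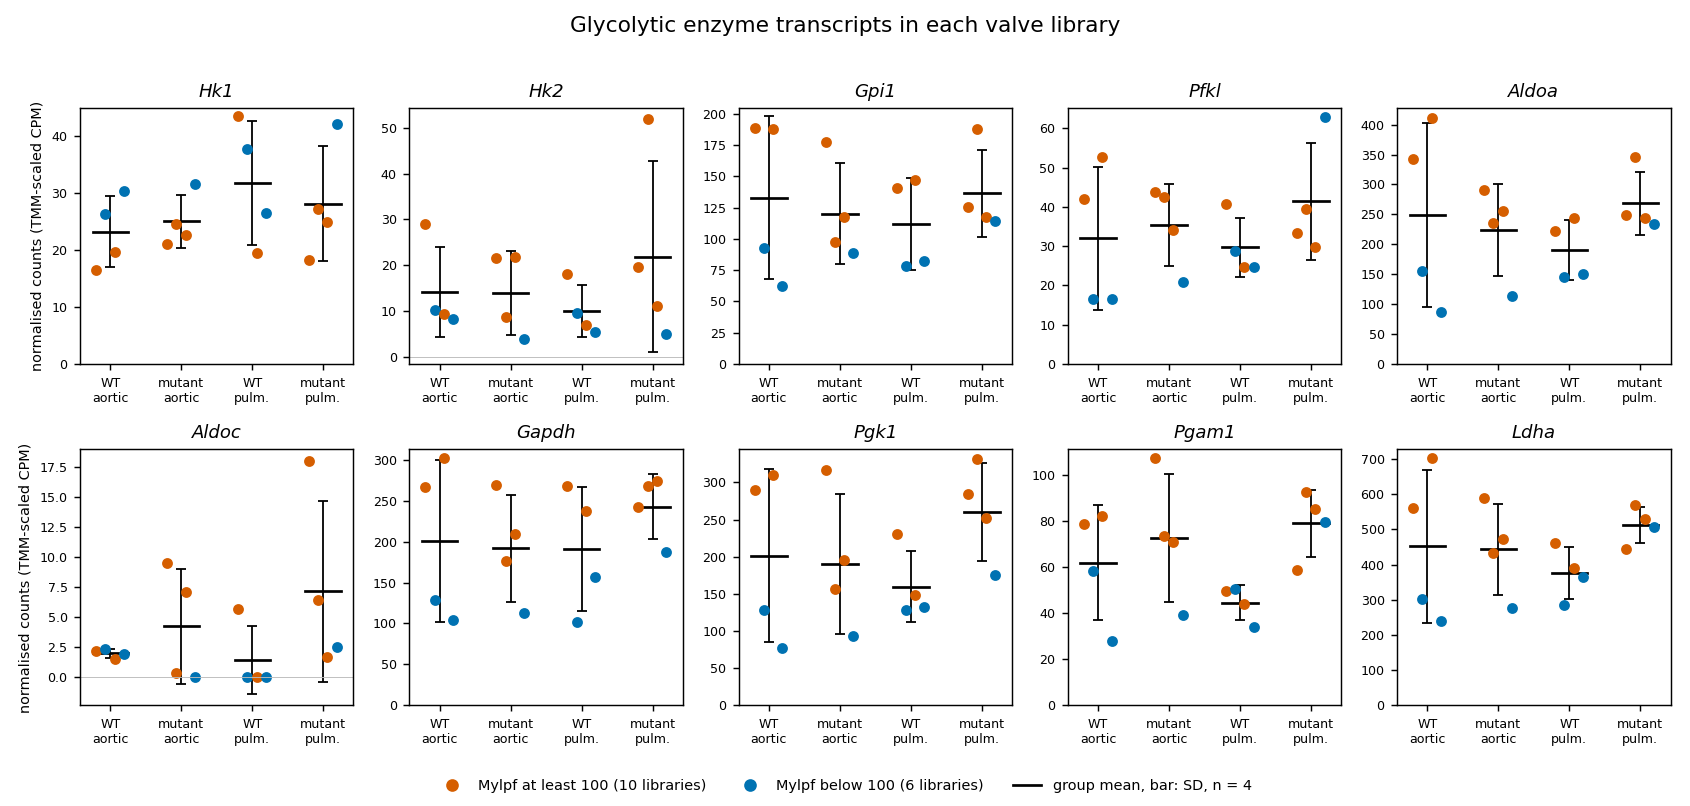
Normalised counts (vertical axis) of the 10 enzymes in each library, by group; points are libraries in number order, blue for Mylpf below 100 and orange for at least 100, and bars are the group mean ± SD (n = 4). Pgam1 has no overlap between the pulmonary groups, and the blue points lie mostly low except in Hk1, with Pfkl, Pgam1 and Ldha of mutant pulmonary library 4 among the higher values of their panels.

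Aldoa (chr7:126795234-126800751, minus strand), the main aldolase of muscle and most tissues, was 342, 156, 412 and 86.7 in the wild-type aortic libraries and 291, 235, 256 and 113 in the mutants. Its pulmonary values were 223, 145, 244 and 151 in the wild types and 249, 346, 243 and 235 in the mutants. All 4 mutant pulmonary libraries exceeded 3 of the 4 wild types, and the exception was wild-type library 3. Aldoc (chr11:78322968-78327781, plus strand), the brain form, was 2.17, 2.35, 1.48 and 1.93 in the wild-type aortic libraries and 9.53, 0.313, 7.06 and 0 in the mutants. In the pulmonary valve it was 5.63 in wild-type library 1, 0 in the other 3 wild types, and 18.01, 6.44, 1.68 and 2.47 in the mutants. Per kb, Aldoa made up 96.1% to 100% of the aldolase transcript in every library, so Aldoc was a minor form throughout.

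Gapdh (chr6:125161715-125166467, minus strand), the step that yields NADH, was 267, 129, 302 and 104 in the wild-type aortic libraries and 269, 176, 210 and 113 in the mutants. Its pulmonary values were 267, 102, 237 and 157 in the wild types and 242, 268, 273 and 187 in the mutants. The gene is often taken as a constant reference, but here the highest library was at 302 and the lowest at 102. Pgk1 (chrX:106187100-106203699, plus strand), which makes the first ATP of the chain, was 290, 129, 310 and 76.9 in the wild-type aortic libraries and 317, 157, 196 and 93.2 in the mutants. Pulmonary libraries had 231, 128, 148 and 132 in the wild types and 284, 332, 252 and 175 in the mutants. Within each litter the mutant pulmonary library was above the wild type.

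Pgam1 (chr19:41911923-41918660, plus strand) moves the phosphate group along the 3-carbon chain. It was 78.9, 58.3, 82.4 and 28.1 in the wild-type aortic libraries and 107, 73.5, 70.8 and 39.3 in the mutants. Pulmonary levels were 49.5, 50.7, 44.0 and 34.3 in the wild types and 58.8, 92.7, 85.1 and 79.5 in the mutants. Its pulmonary groups did not overlap, while its aortic groups did, and the groups of the other 9 enzymes overlapped in both valves. Its value is uncertain, because the processed copy Pgam1-ps2 is 100% identical to it over 765 bases, is in the table and was assigned more reads than Pgam1, with 177 to 572 normalised counts per library. Pgam1 and Pgam1-ps2 together were 473, 328, 335 and 312 in the wild-type pulmonary libraries and 616, 578, 621 and 393 in the mutants, and these sums overlapped, since wild-type library 1 was above mutant library 4. The muscle isozyme Pgam2 made up 6.1 ± 4.4% of the mutase transcript per kb in the low-Mylpf set and 40.1 ± 11.4% in the others, with Pgam1-ps2 left out.

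Ldha (chr7:46841475-46855627, plus strand) was 561, 303, 704 and 240 in the wild-type aortic libraries and 590, 432, 474 and 277 in the mutants. In the pulmonary valve it was 462, 284, 392 and 365 in the wild types and 446, 569, 530 and 508 in the mutants. Mutant pulmonary libraries 2 to 4 were above every wild-type pulmonary library. The share of lactate dehydrogenase transcript per kb that was Ldha was alike, at 85.4 ± 2.6% in the low-Mylpf set and 85.6 ± 2.5% in the others, with Ldhb, the form linked to lactate use in heart, making up the rest. Of the steps without a listed enzyme, triose isomerase (Tpi1) was 44.8 to 112 in the low-Mylpf set and 147 to 247 in the others, and Pkm, the last step to pyruvate, was 125 to 234 against 178 to 316. Eno1, the widely expressed enolase, was 64.3 to 255 against 144 to 228. Near-identical copies also touch other genes: Gapdh has 78 copies of at least 95% identity over at least 200 bases, of which Gm3839 is in the table at a mean of 4.16, while Pgk1 and Ldha have 4 each and Gpi1 has 1, none of them in the table. Eno1 shares its sequence with Eno1b and Gm4735, and Eno1b is listed at 0 in mutant pulmonary library 4, where Eno1 is highest.

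**Figure D2:**
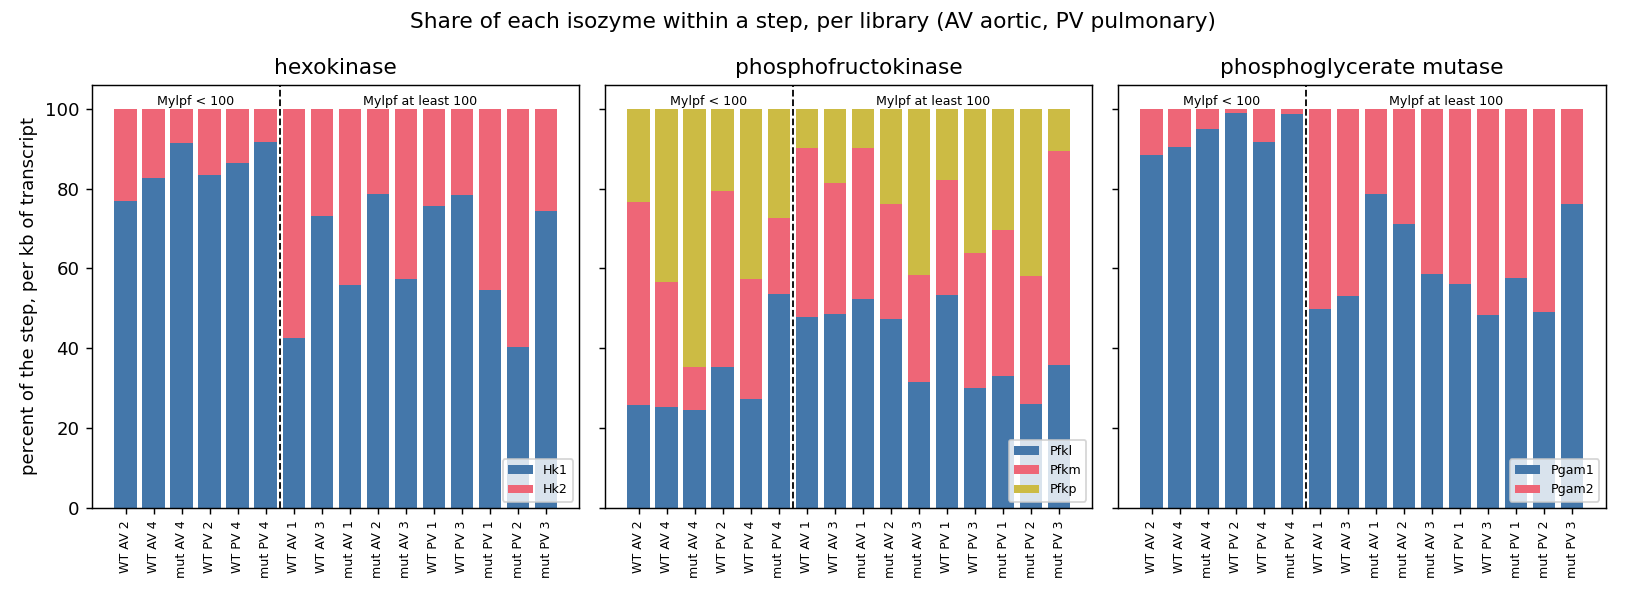
Percent of the transcript of a step, per kb, that each isozyme contributed in each library, for hexokinase, phosphofructokinase and phosphoglycerate mutase; libraries left of the dashed line have Mylpf below 100. Hk2 and Pgam2 take larger shares to the right, Pgam2 with a mean of 40.1% against 6.1%.

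The genotype comparison asks what the mutation changed in each valve. In the aortic valve the enzymes were close to equal between the groups: 8 of 10 log2 differences (mutant minus wild type) were above 0, with a median of 0.04 beside 0.02 over all genes tested. They lay between -0.11 (SE 0.64, Hk2) and 0.27 (SE 0.38, Pfkl), each smaller than its standard error. In the pulmonary valve 9 of 10 were above 0, with a median of 0.49 beside 0.01 over all genes. Pgam1 was 44.6 ± 7.50 in wild types and 79.0 ± 14.54 in mutants (log2 0.81, SE 0.33), Pgk1 160 ± 48.1 and 261 ± 65.9 (0.71, SE 0.42), and Hk2 10.01 ± 5.66 and 21.9 ± 20.9 (0.73, SE 0.64), all as SD with n = 4. Aldoa differed by 0.51 (SE 0.40), Ldha by 0.46 (SE 0.30), Pfkl by 0.44 (SE 0.38), Gapdh by 0.42 (SE 0.36), Gpi1 by 0.31 (SE 0.35) and Hk1 by -0.17 (SE 0.31). Aldoc had the largest value, 1.91 (SE 0.82), at a level of few reads. Several of these rest on 1 library: Gapdh was 0.16 without wild-type pulmonary library 2, Pfkl 0.22 without mutant pulmonary library 4, and Hk2 0.18 and Gpi1 0.15 without mutant pulmonary library 2.

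None of these differences passed the test, and neither did that of Jag1, the gene with the floxed allele. Jag1 was at -1.62 (SE 0.45) in the aortic and -1.74 (SE 0.45) in the pulmonary valve. Even differences of that size thus went uncalled, so the lack of a call does not show that an enzyme was unchanged. With limma on log2(value + 1) and Benjamini-Hochberg adjustment over 13963 genes, 0% of genes were called in either valve (at an unadjusted p under 0.05, 196 genes in the aortic and 437 in the pulmonary valve), and no enzyme was called under any other tool or setting run. The count tests called no gene in the aortic valve, and in the pulmonary valve DESeq2 called 2 and edgeR 0. Exact two-sided permutation tests, 20 tests in all, ran over the 70 assignments of 8 libraries and did not keep the litter pairs together. In the exact permutation test Pgam1 in the pulmonary valve had p = 0.0286, the smallest that the 70 assignments allow. A permutation test that swaps genotypes only within litter pairs was not run. It has fewer assignments, so its smallest possible p is larger. Pgk1 and Ldha had an exact p of 0.0571 and Aldoa and Aldoc of 0.0857 in that valve, and in the aortic valve the lowest exact p was 0.543. These p-values are not adjusted for the 20 tests. By litter, the mutant was higher in 4 of 4 pulmonary pairs for Pgk1, Pgam1 and Aldoc, and 6.67% of all genes had this pattern. None was lower in all 4 pulmonary pairs (6.9% of all genes), and in the aortic valve none was higher (5.99%) or lower (5.03%) in all 4. All 4 mutant values lay above all 4 wild types in the pulmonary valve for 1 of the 10 enzymes, Pgam1, and for 0.938% of all genes. None lay below (1.05% of genes), and in the aortic valve none lay above (0.759%) or below (0.824%).

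The median pulmonary difference was smaller within the libraries rich in muscle transcripts. With only the 10 libraries with Mylpf at least 100 (2 wild types and 3 mutants per valve), the median over the enzymes was 0.25 in the pulmonary and -0.29 in the aortic valve. There Pgam1 differed by 0.72 (SE 0.28) and Pgk1 by 0.63 (SE 0.29) in the pulmonary valve, while Gapdh was at 0.05 (SE 0.22) and Gpi1 at -0.03 (SE 0.28). In the aortic valve of these libraries Gpi1 was at -0.57 (SE 0.28), Aldoa at -0.53 (SE 0.22) and Pgk1 at -0.49 (SE 0.29). These aortic groups also differed in tissue markers. Valve mesenchyme markers summed to 2264 and 2141 in wild-type libraries 1 and 3 and to 2088, 6078 and 6271 in mutant libraries 1 to 3. Cardiomyocyte markers summed to 2791 and 3251 against 929, 941 and 2050.5. The part of tissue content in these differences was not tested. With only the 6 low-Mylpf libraries (2 wild types and 1 mutant per valve, whose spread is assumed to equal that of the other groups) the medians were 0.61 and -0.04. With the Mylpf set as a term over all libraries they were 0.31 and -0.18. Pgam1 with its copy summed differed by 0.60 (SE 0.34) in the pulmonary and -0.09 (SE 0.34) in the aortic valve.

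**Figure D3:**
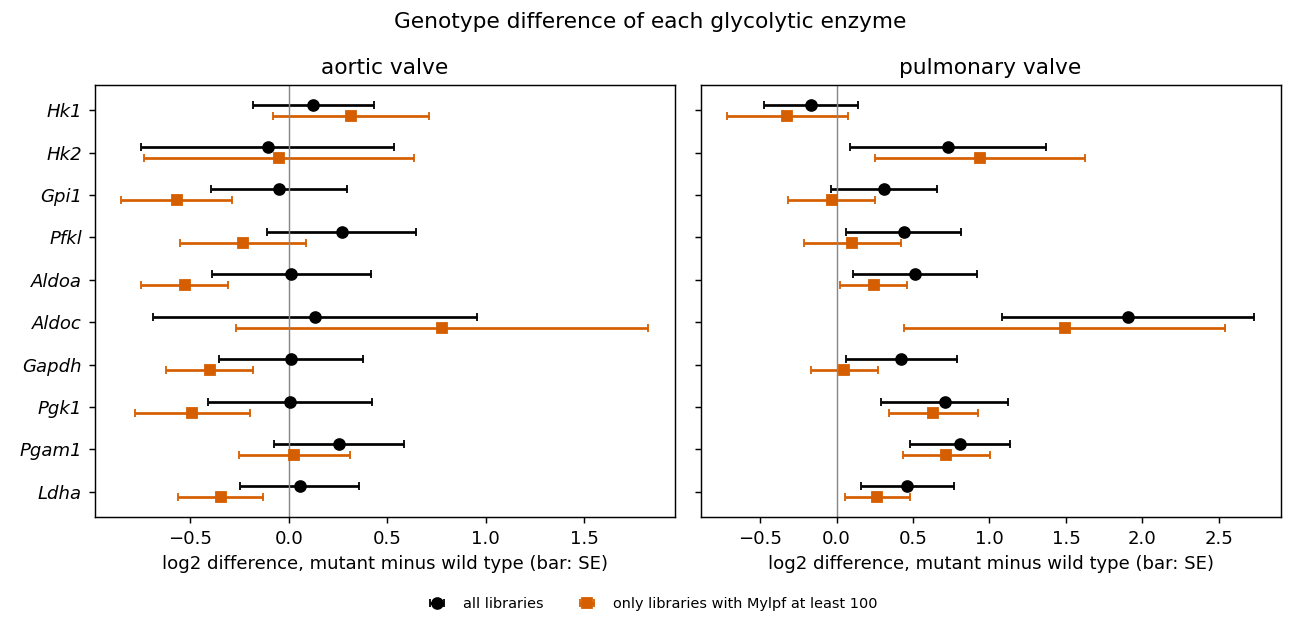
Log2 difference, mutant minus wild type, of each enzyme (horizontal axis, bar: SE) in the aortic and the pulmonary valve, over all libraries (black, 4 per group) and over libraries with Mylpf at least 100 (orange, 2 wild types and 3 mutants). In the pulmonary panel 9 of 10 black points are above 0. In the aortic panel black points lie near 0 and 3 of 10 orange points are above 0. Those for Gpi1, Pfkl, Aldoa, Gapdh, Pgk1 and Ldha are among the orange points below it.

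Whether the genotype difference itself differed between the valves was tested as an interaction. It was above 0 (pulmonary larger than aortic) for 9 of 10 enzymes, with a median of 0.45 beside -0.02 over all genes, and between -0.29 (SE 0.43, Hk1) and 1.78 (SE 1.16, Aldoc). Leaving out 1 library moved this median between 0.17 (without wild-type aortic library 3) and 0.78 (without wild-type aortic library 4), and it was 0.65 with Mylpf at least 100 only and 0.61 with Mylpf below 100 only. limma called 0% of genes for it (264 at an unadjusted p under 0.05), so a difference between the valves was not shown. Between the valves themselves, wild-type pulmonary minus aortic values had a median of -0.00018 over all genes, of which 49.98% were above 0. Over the enzymes the median was -0.16, with Hk1 (0.41, SE 0.31) and Pfkl (0.05, SE 0.38) above 0. This median had no stable sign: it was 0.06 without wild-type aortic library 1, 0.11 without library 3, -0.30 without library 2 and -0.50 without library 4 of that group, 0.02 with array weights, 0.15 with Mylpf below 100 only and -0.54 with Mylpf at least 100 only. In the mutants the median over all genes was -0.02, with 47.1% of them above 0. The median over the enzymes was 0.29 and all 10 were above 0, from 0.12 (SE 0.31, Hk1) to 0.89 (SE 0.82, Aldoc). Without mutant aortic library 4 the median was 0.06 with 7 of 10 above 0, and without mutant aortic library 1 it was 0.45. With Mylpf at least 100 only it was 0.12 with 8 of 10 above 0. With Mylpf below 100 only it was 0.89, which compares 1 library of each valve, mutant library 4. With litter as a term the median was -0.37 in the wild types and 0.13 in the mutants, where 8 of 10 were above 0. limma called 0% of genes in either comparison (153 and 67 at an unadjusted p under 0.05). The aortic and pulmonary libraries were prepared as separate batches, and what the valve and what the batch contributed cannot be told apart.

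The enzymes also varied with the Mylpf sets, which were described and not tested. The median was lower in the 6 low-Mylpf libraries for 9 of the 10 enzymes, where 49.3% of all genes had a lower median. The median log2 difference between the sets (at least 100 minus below 100) was 0.78 over the enzymes and -0.01 over all genes. The ratio of medians was 2.21 for Gapdh (267 against 121), 2.08 for Pgk1 (268 against 129), 1.71 for Ldha (502 against 294), 1.71 for Aldoa (253 against 148) and 1.68 for Gpi1 (144 against 85.4). For these 5 enzymes at least 5 of the 6 low-Mylpf libraries were below all 10 others, a pattern found in 6.92% of all genes. For none of the 10 were all 6 below all 10, which 3.68% of genes were. For each of the 5 the exception was mutant pulmonary library 4, with Ldha at 508, Aldoa at 235, Gpi1 at 114 and Pgk1 at 175.

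Of the muscle isozymes, Pgam2 and Eno3 separated the sets without overlap and Pfkm did not. Pgam2 was 0.267 to 3.60 in the low-Mylpf set and 12.6 to 45.6 in the others, and Eno3, the muscle enolase, 1.72 to 12.2 against 17.1 to 42.6. Tpi1, which has no muscle form, was also separate, as was Eno1b. The value of Eno1b depends on how reads were split with its near-identical copies. Eno1, Eno1b and Gm4735 summed overlapped, at 91.6 to 258 in the low-Mylpf set against 255 to 436. Pfkm, the muscle phosphofructokinase, overlapped at 7.25 to 27.9 against 17.1 to 37.4, and Pfkp had a higher median in the low-Mylpf set, at 33.4 against 23.2. In bulk samples such as these, fewer cells of a type and less RNA per cell cannot be told apart. The part that skeletal muscle, heart muscle or valve cells have in these levels was not tested.

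**Figure D4:**
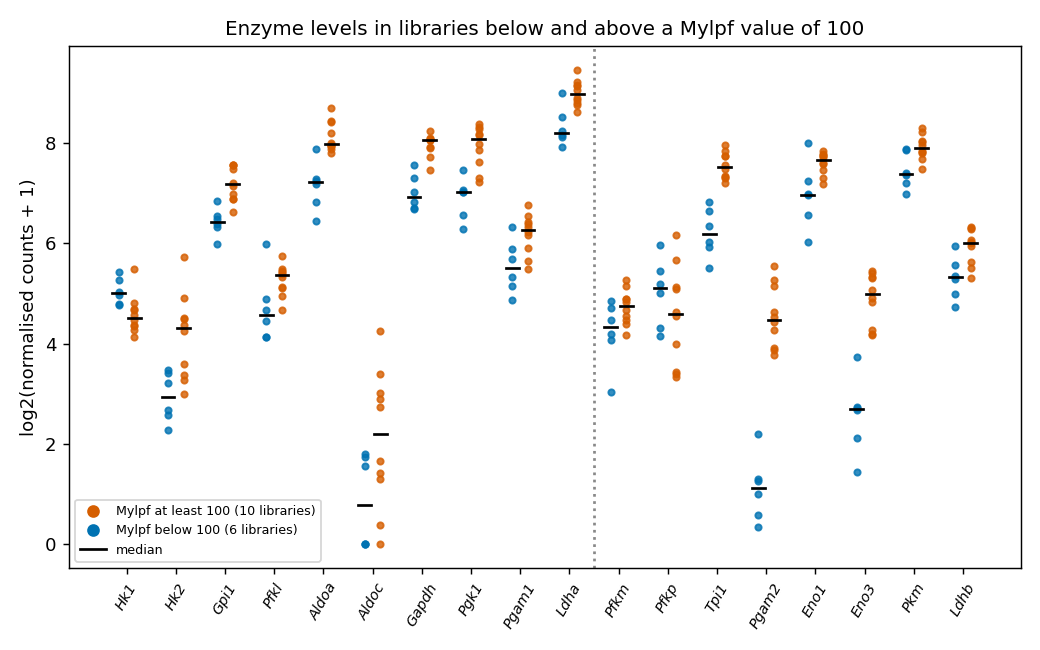
Level of the 10 enzymes (left of the dotted line) and of 8 further isozymes (right), as log2(normalised counts + 1), in the 6 libraries with Mylpf below 100 (blue) and the 10 others (orange), with the median as a black bar. Medians are lower in blue for all but Hk1 and Pfkp, and Tpi1, Pgam2 and Eno3 do not overlap.

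Genes around the chain were counted from lists in the pulmonary valve, where 7111 of all 13963 genes had a log2 difference above 0. In the aortic valve 1 of 6 transporters, 6 of 16 flux regulators, 6 of 9 glycogen genes, 3 of 7 pentose phosphate genes and 14 of 19 hypoxia genes were above 0, beside 7370 of all genes, and 0 passed. In the pulmonary valve all 6 transporters of glucose and lactate had a log2 difference above 0, and 0 passed the test. Slc2a3, a high-affinity glucose transporter, was at 9.68 ± 5.43 in pulmonary wild types and 14.3 ± 4.99 in mutants (0.59, SE 0.49). Of 16 regulators of flux 12 were above 0 and 0 passed. Pfkfb1 at -1.29 (SE 0.63) and Pfkfb2 at -0.78 (SE 0.45) were below 0. Both are enzymes that set the level of a sugar phosphate that drives phosphofructokinase. Pdhb, a subunit of the enzyme that feeds pyruvate to the mitochondria, was above 0 at 0.44 (SE 0.26). Of 9 measured glycogen genes 8 were above 0 and 0 passed, with Pgm1 at 0.81 (SE 0.40) and Pygb, a glycogen phosphorylase, at 0.51 (SE 0.26). Of 7 genes of the pentose phosphate branch, which leaves glycolysis after its first step, 2 were above 0 and 0 passed, with Pgd at -0.39 (SE 0.22).

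Of 19 measured hypoxia-induced or hypoxia-signalling genes outside glycolysis 13 were above 0 in the pulmonary valve and 0 passed. Ankrd37, a target of HIF-1, was 1.46 ± 1.30 in wild types and 7.46 ± 4.31 in mutants (1.799, SE 0.66). Hif1a, the oxygen-regulated subunit of HIF-1, was 112 ± 17.8 and 148 ± 22.8 (0.39, SE 0.19), and its partner Arnt was 124 ± 17.3 and 87.9 ± 24.0 (-0.52, SE 0.22), so these named members did not lie on one side. The summed level of this list was 904 to 1143 in the low-Mylpf set and 945 to 1206 in the others. The sum of the 10 glycolytic enzymes was 655 to 1410 in the low-Mylpf set and 1247 to 2082 in the others.

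Among the genes outside these lists whose levels were most like the mean log2 level of the enzymes, by Pearson r over the 16 libraries among 9259 genes with a mean of at least 10, were Ndufv3, Atp5c1, Spred2 and Vapa. Ndufv3 and Atp5c1 encode parts of mitochondrial complex I and of the ATP synthase. Because the libraries form separate sets by Mylpf, r is given within each: for Ndufv3 it was 0.85 over the 10 libraries with Mylpf at least 100 and 0.87 over the 6 others, and for Atp5c1 0.61 and 0.87. For Spred2 it was 0.83 and 0.63, and for Vapa 0.72 and 0.76. Ndufv3 was 18.8 to 37.6 in the low-Mylpf set and 30.6 to 51.5 in the others. Among the enzymes themselves, the r of each with the mean of the other 9 was highest for Pgk1 in the 10 libraries (0.89, against 0.84 in the 6) and for Aldoa in the 6 (0.89, against 0.47 in the 10). For Hk1 it was -0.03 in the 10 and 0.50 in the 6. All these are descriptions of libraries that share groups, litters and batches.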

How the data were processed

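RNA was extracted with a PicoPure kit, amplified with Ovation V2 and made into TruSeq libraries, aortic ones in batch 1 and pulmonary ones in batch 2, per the labels' protocols. The submitters' processing notes name RSEM 1.2.3, cutadapt 1.6, CASAVA 1.8.2 and FastQC, with build GRCm38. How the values were normalised and filtered was not given in the sources used here. Each deposited signal (TMM-scaled CPM by its values) is 1 value per gene and library, and 100% of values were whole multiples of 1 step (tolerance 0.05 read), which gave the reads behind them; no molecular identifiers are mentioned, so reads need not be independent molecules. RSEM shares reads between near-identical genes. Of 13964 genes 184 matched no symbol.

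The main test was limma 3.58.1 (R 4.3.3, trend) on log2(value + 1) with a mean per group over all 16 libraries, for genes of at least 1 in at least 4 libraries (13963), two-sided, Benjamini-Hochberg threshold 0.05. Differences on that scale are too small for genes of low level. Alternatives were DESeq2 1.42.0, edgeR 4.0.16 and others, given in the closing section. Group means ± SD and exact permutation tests used Python 3.11.15 and scipy 1.17.1; copies were searched with blastn 2.17.0. Libraries of one group come from different litters, and nothing in the labels says more of how they were separated, so p-values measure the spread between these samples.

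Within a valve the wild type and mutant of a replicate number share a litter, per the labels, so the numbers pair the samples. Deviations from group means correlated within pairs at 0.48, 0.01, 0.20 and 0.64 (aortic) and 0.49, -0.03, 0.07 and 0.45 (pulmonary). An aortic and a pulmonary library may share an embryo.

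The members and lists were chosen with earlier results of these data known. Named were every listed enzyme, the isozymes of the same steps, up to 3 members of each other list with the smallest limma p, and the 5 most alike genes, of which 1 is not reported here. Pgam1-ps2, Gm3839 and Gm4735 were named after their values were seen, and not all named list members are printed.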

Additional observations from a re-analysis of the deposited data

Results flagged for a closer look

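Of 40 sets of 4 libraries (10 enzymes in 4 groups), 4 held a library far from the other 3, by the gap to the nearest value over the whole range; chance gives about 1 in 20 such sets. Hk2 was 28.9 in wild-type aortic library 1, with the other 3 at 8.25 to 10.2. Gpi1 was 188 and Aldoa 346 in mutant pulmonary library 2, where the other 3 were at 114 to 125 and at 235 to 249. Aldoc was 5.63 in wild-type pulmonary library 1 and 0 in the other 3. Without mutant pulmonary library 2 the pulmonary difference of Aldoa was 0.38 and that of Gpi1 0.15 (log2), and that of Hk2 was 0.18.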

How the results depend on the processing

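No enzyme passed the threshold in any setting. The pulmonary median over the enzymes was 0.25 to 0.64 under the settings other than leaving out a library and 0.40 to 0.61 when each library was left out; the aortic median was -0.29 to 0.35 and -0.23 to 0.31, so it has no stable sign. The mean over both valves had a median of 0.29, which was -0.02 with only libraries with Mylpf at least 100 and 0.15 to 0.44 leaving out a library. Litter as a term (replicate block) left the log2 differences of the enzymes as they were and narrowed the SE, for example of Pgam1 from 0.33 to 0.22 in the pulmonary valve, called no enzyme, and for the mean over both valves called 1 gene (Gm9825) where the model without it called 0; it changed no other genotype call. With DESeq2 the count called was 2 in the pulmonary valve and 5 for the mean over both valves; with the Mylpf set as a term it was 2 for the mean. With only libraries with Mylpf at least 100 it was 3 (aortic), 2 (pulmonary) and 3 (mean), and with only those below 100 it was 3, 1 and 3. Leaving out a library gave 0 to 2 genes in the aortic valve (2 without wild-type aortic library 4), 0 in the pulmonary valve, and 0 to 3 for the mean (3 without wild-type aortic library 4, 2 without wild-type pulmonary library 2). The cause was not tested.

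Aortic differences of single enzymes changed sign as follows. With DESeq2 Aldoa was -0.18, Gapdh -0.086, Pgk1 -0.10 and Ldha -0.049. With edgeR Aldoa was -0.15, Gapdh -0.064, Pgk1 -0.080 and Ldha -0.028. With DESeq2 size factors Gapdh was -0.00036 and Pgk1 -0.0070. With the Mylpf term Aldoa was -0.23, Aldoc -0.13, Gapdh -0.23, Pgk1 -0.25 and Ldha -0.10. With array weights Hk1 was -0.035, Hk2 0.30 and Gpi1 0.19. With copies summed, chosen after seeing the data, Gapdh was -0.0019 and Pgam1 -0.092. With Mylpf at least 100 only, Pfkl was -0.23, Aldoa -0.53, Gapdh -0.40, Pgk1 -0.49 and Ldha -0.35. With Mylpf below 100 only, Gpi1 was 0.22, Aldoa -0.040, Aldoc -1.65, Gapdh -0.038, Pgk1 -0.096 and Pgam1 -0.044. With a pseudocount of 0.5 Aldoc was -0.063. In the pulmonary valve Gpi1 was -0.032 with Mylpf at least 100 only, and Hk1 0.40 and Hk2 -0.47 with Mylpf below 100 only.

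Leaving out a library, the aortic differences ranged from -0.018 to 0.26 for Hk1, -0.40 to 0.35 for Hk2, -0.36 to 0.17 for Gpi1, -0.41 to 0.34 for Aldoa, -0.43 to 0.70 for Aldoc, -0.25 to 0.26 for Gapdh, -0.38 to 0.30 for Pgk1, -0.079 to 0.52 for Pgam1 and -0.20 to 0.31 for Ldha. The pulmonary differences ranged from -0.38 to 0.0089 for Hk1, 0.18 to 1.23 for Hk2, 0.15 to 0.46 for Gpi1, 0.22 to 0.60 for Pfkl, 0.16 to 0.62 for Gapdh, 0.69 to 0.94 for Pgam1 and 0.58 to 0.90 for Pgk1. Depth limits Aldoc most, since 1 read is worth 0.117 to 0.232 normalised counts.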
